A study of Macaca mulatta with 16 samples.

Results

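Stretches of chromatin that are open in both memory CD4+ and memory CD8+ T cells and in neither naive population were described across 16 ATAC-seq libraries from 2 rhesus macaques. ATAC-seq uses a transposase to cut accessible DNA, and each library was deposited as a list of peaks, the stretches called open. Overlapping peaks of all libraries gave 55449 regions, and 472 of them had a peak in all 8 memory libraries and in none of the 8 naive libraries. These 472 are called shared memory regions here. They were chosen by the presence and absence of peaks in these same lists, so their openness in memory cells and its lack in naive cells is their definition and not a finding.

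The groups were memory CD8+, memory CD4+, naive CD8+ and naive CD4+ T cells sorted from peripheral blood, each taken after and before dosing. The drug was 2-hydroxypropyl-beta-cyclodextrin (Kleptose HBP), a ring of sugars that binds cholesterol, given under the skin at 1 ml/kg each day as a 15% (w/w) solution for up to 120 days. Every group held 2 libraries, 1 from animal 1 (RhDBCb) and 1 from animal 2 (RhM22), made from 10000 cells each. The labels give no age, sex or genotype for the animals. Both animals were dosed, so time and treatment cannot be told apart.

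A naive T cell has yet to meet its antigen, and a memory T cell comes from one that already did. Memory cells keep a set of regulatory DNA in an accessible form, which is known to let them switch on cytokine, migration and cytotoxic genes faster than naive cells. CD4+ cells mainly help other immune cells and CD8+ cells mainly kill infected ones, and both lineages form memory. Positions are in rheMac10. No gene annotation or sequence of that build was used, so genes, motifs and the sorted cells' marker genes are not given.

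Lists held 36307 to 42034 peaks, and read depth was unknown. A missing peak therefore means that none was called in that list, not that the DNA was closed. The shortest lists were the naive CD8+ ones of animal 1, with 37966 peaks after and 36307 before treatment. Animal 2 carries a single name in the titles and several in the file names, and the titles were followed.

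Most regions open in memory cells were open in naive cells as well. Of 27447 regions open in all 8 memory libraries, 24333 (88.7%) were open in all 8 naive libraries, and the 472 shared memory regions made up 1.72%. Between these classes there were 178 regions open in 1 naive library, 252 in 2, 212 in 3, 433 in 4, 332 in 5, 463 in 6 and 772 in 7. The count thus dipped just beyond the rule, from 472 regions with no naive peak to 178 with 1.

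Many shared memory regions had a weak peak in some memory list, and the lone naive peaks just outside the rule were mostly weak. Of the shared memory regions, 201 (42.6%) had an area score under 300 in at least 1 memory list. That share was not computed over all fitted regions. The area score is the peak caller's summed signal over a peak. The 178 regions with 1 naive peak had that peak at a median percentile of 6.57 in its own list, while their memory peaks, each ranked within its own list, had a median mean percentile of 34.3. Shared memory regions averaged 32.1 on that scale. The naive library holding the lone peak was naive CD8+ before treatment of animal 1 in 40 of the 178 and naive CD8+ after treatment of animal 2 in 5, the extremes of the 8. The strongest of them, chr1:155926416-155928954, averaged the percentile 64.0 in memory lists and reached 19.8 in the naive CD8+ list of animal 1 before treatment. A further 287 regions were open in 7 memory libraries and no naive one. Their mean percentile was lower, with a median of 20.9. Memory CD4+ cells of animal 2 after treatment lacked the peak in 71 of them, the most of any library, and memory CD4+ cells of animal 1 after treatment in 17, the fewest. The strongest of these, chr19:13406433-13412896, averaged 53.6 and was missing from memory CD4+ cells of animal 1 before treatment.

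Regions picked in the libraries of 1 time kept their pattern in the libraries of the other time. Openness in the other time was not used in the choice. The region borders, here and in the reading across lineages, came from the merged peaks of all 16 libraries. Regions open in all 4 memory libraries and no naive library before treatment numbered 779. After treatment 90.3% ± 5.52 (SD, n = 4 libraries) of them were open in memory libraries and 4.30% ± 1.38 (SD, n = 4) in naive ones. By library the memory shares were 93.8% and 87.9% in CD8+ cells and 95.8% and 83.7% in CD4+ cells of animals 1 and 2. Every memory share was above every naive share, which ran from 2.57% to 5.65%. Of the 884 regions chosen after treatment, 91.0% ± 2.22 (SD, n = 4) were open in memory libraries before treatment and 8.65% ± 1.83 (SD, n = 4) in naive ones. Only 2 of the 779 and 5 of the 884 were open in no memory library of the other time. As a background, each library of the other time was open at 58.7% to 69.5% of all 55449 regions. The same 2 animals gave both times.

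Read across lineages, the pattern was kept more often from CD4+ to CD8+ cells than the other way. Of 1353 regions open in every memory and no naive CD4+ library, 73.8% ± 4.76 (SD, n = 4) were open in memory CD8+ libraries and 17.3% ± 3.09 (SD, n = 4) in naive CD8+ libraries. Of 2401 regions chosen likewise in CD8+ cells, 49.5% ± 3.30 (SD, n = 4) were open in memory CD4+ libraries and 13.0% ± 0.986 (SD, n = 4) in naive CD4+ libraries. The memory shares of the directions did not overlap, with 69.3% to 80.3% against 46.1% to 53.8%, and their difference was not tested. The 472 shared memory regions were 34.9% of the CD4+ choice and 19.7% of the CD8+ choice. Another 175 of the CD4+ choice (12.9%) and 947 of the CD8+ choice (39.4%) were open in no memory library of the other lineage.

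**Figure D1:**
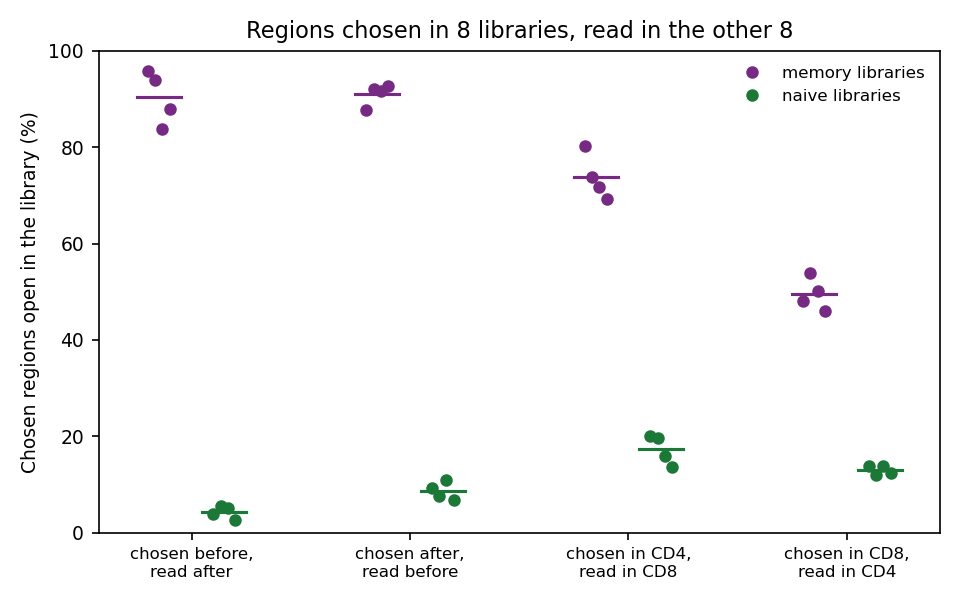
Share of regions open in each library (vertical axis, %) for regions chosen in 8 libraries and read in the other 8, with 1 point per library and a bar at the mean of 4. Memory libraries lie above naive ones in all 4 readings, and the lowest memory shares, 46.1% to 53.8%, are those of the CD8+ choice read in CD4+ cells.

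The shared memory regions were small and of low rank beside always-open regions, and near in both to regions also open in some naive libraries. Their width was 1260.5 bp at the median (quartiles 979.5 and 1625.25), against 1304 bp for regions open in all 8 memory and 1 to 7 naive libraries and 2229 bp for regions open in all 16. Strength was measured by ranking the summed area score over the 27447 regions open in all 8 memory libraries, separately in each library, from near 0 (weakest) to 100 (strongest). This set is the same in every library, so ranks from lists of unequal length were not compared. Averaged over the 8 memory libraries, the shared memory regions had a median percentile of 15.98, with 289 of them (61.2%) under 20 and 6 at 50 or above. Regions also open in 1 to 7 naive libraries had a similar median of 17.6, and always-open regions one of 54.7.

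Most shared memory regions were simple peaks with the same centre in both lineages. In 418 of 472 (88.6%) every memory list held a single peak, and in the other 54 some list split it. The summits of the strongest peak lay within 104 bp of each other at the median over the 8 memory lists, and within 100 bp in 234 regions. The mean CD8+ and mean CD4+ summits were within 50 bp in 334 regions (70.8%) and over 200 bp apart in 31. The widest region, chr10:86630787-86635008, spanned 4222 bp, and the next were chr2:161972822-161977028 with 4207 bp and chr15:10596792-10600970 with 4179 bp. The narrowest were chr14:19976894-19977338 with 445 bp, chrX:19449446-19449991 with 546 bp and chr13:14807392-14807963 with 572 bp. The 3 narrowest averaged percentiles of 3.35, 2.43 and 2.36, near the bottom of the ranking, and the 3 widest 42.3, 49.3 and 46.0.

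The region of highest mean rank was chr8:79272447-79275200, at a mean percentile of 58.4. It stood at 40.0 and 53.8 in memory CD8+ cells of animals 1 and 2 after treatment and at 67.8 and 57.1 before, against 61.5 and 64.4 after and 55.2 and 67.7 before in memory CD4+ cells. The lineages overlapped here, and the low value was that of memory CD8+ cells of animal 1 after treatment. The next, chr1:55209143-55212394, stood at 73.6, 76.7, 61.4 and 66.6 in memory CD8+ cells, against 47.1, 53.0, 39.9 and 44.0 in memory CD4+ cells (animal 1 after and before, then animal 2 after and before, here and below). Every CD8+ value was above every CD4+ value. At chr13:14738248-14741308 the percentile averaged 59.8 ± 2.29 in memory CD8+ cells and 43.2 ± 3.84 in memory CD4+ cells (SD, n = 4 each), again without overlap. Of the 10 highest, chr3:180988069-180990126 was also fully separated, with means of 55.1 ± 3.83 in memory CD8+ cells and 41.4 ± 3.55 in memory CD4+ cells (SD, n = 4 each). At chr4:153133037-153135691 the means were 53.9 ± 3.87 in memory CD8+ cells and 43.6 ± 5.89 in memory CD4+ cells (SD, n = 4 each), with overlap by a narrow margin, 50.4 the lowest CD8+ value and 50.5 the highest CD4+ value. The other 5 were chr16:41687896-41690190, chr16:35020843-35022967, chr6:154946036-154948833, chr2:161972822-161977028 and chr13:9541438-9542864, with mean percentiles of 48.3 to 55.3 and overlapping lineages. The region on chromosome 6 was the only 1 of these 5 with a lower CD8+ mean, 44.4 ± 14.4 in memory CD8+ cells against 57.6 ± 3.15 in memory CD4+ cells (SD, n = 4 each), and its difference did not pass the test described next (limma adjusted p = 0.164).

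The lineage comparison asked whether regions open in the memory cells of both lineages are equally strong in them, which the rule leaves free. They were more often stronger in memory CD8+ cells. Of the 472, 131 (27.8%) ranked higher in memory CD8+ than in memory CD4+ libraries and 12 (2.54%) lower. Over all 27447 regions fitted the shares were 9.94% higher and 10.3% lower. The test was limma on ranks turned into normal scores, with time as a covariate, 4 against 4 libraries, Benjamini-Hochberg adjustment over all 27447 and a threshold of 0.05. All 472 regions were in the fit. A normal score places a rank on a bell curve with SD 1, and differences are given on that scale. The median difference, CD8+ minus CD4+, was 0.37 for the shared memory regions and 0.00 for all fitted regions. Each side held 2 animals sampled at 2 times, so the p-values reflect library-to-library spread in those animals. Fewer cells with an open region cannot be told apart from weaker opening in each cell.

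The direction was seen in each animal at each time. Memory CD8+ cells ranked above memory CD4+ cells at 67.8% of the shared memory regions in animal 1 after treatment, 82.4% in animal 1 before, 66.3% in animal 2 after and 68.0% in animal 2 before. Over all fitted regions these shares were 49.0%, 52.9%, 50.9% and 49.0%. The higher share of animal 1 before treatment went with its memory CD8+ library, where the shared memory regions had a median percentile of 27.3, against 19.6 in that animal after treatment and 16.01 and 19.2 in animal 2 after and before. In memory CD4+ libraries the medians were 12.1, 11.8, 9.11 and 11.7, so no CD8+ median was below a CD4+ one. All 4 CD8+ values lay above all 4 CD4+ values in 144 regions (30.5%) and below them in 12 (2.54%), against 12.8% and 12.7% of all fitted regions.

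The count of lower regions was less steady than that of higher ones. Without the memory CD8+ library of animal 1 before treatment, 36 regions were lower and 75.2% of the called regions were higher. Over all fitted regions 10.5% were higher and 11.7% lower without it. Lower regions numbered 4 without memory CD4+ of animal 1 after treatment, 6 without memory CD4+ of animal 2 after and 7 without memory CD8+ of animal 2 after. Lower calls over all fitted regions were 6.93%, 6.75% and 8.33% in the same order. With the animal as a replicate block 176 were higher and 22 lower, and calls over all fitted regions were more frequent too, with 13.2% higher and 14.2% lower. Ranked only among the 3114 regions that were not open in all naive libraries, 82 of the 472 were higher and 38 lower. The share of higher calls was 68.3% there and 91.6% in the fit over 27447. In that smaller set 15.9% of all regions were higher and 16.3% lower. Against these regions, higher calls were thus only slightly more frequent among the 472, and the lean was mostly a lack of lower calls. That ranking was chosen after the data were seen.

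**Figure D2:**
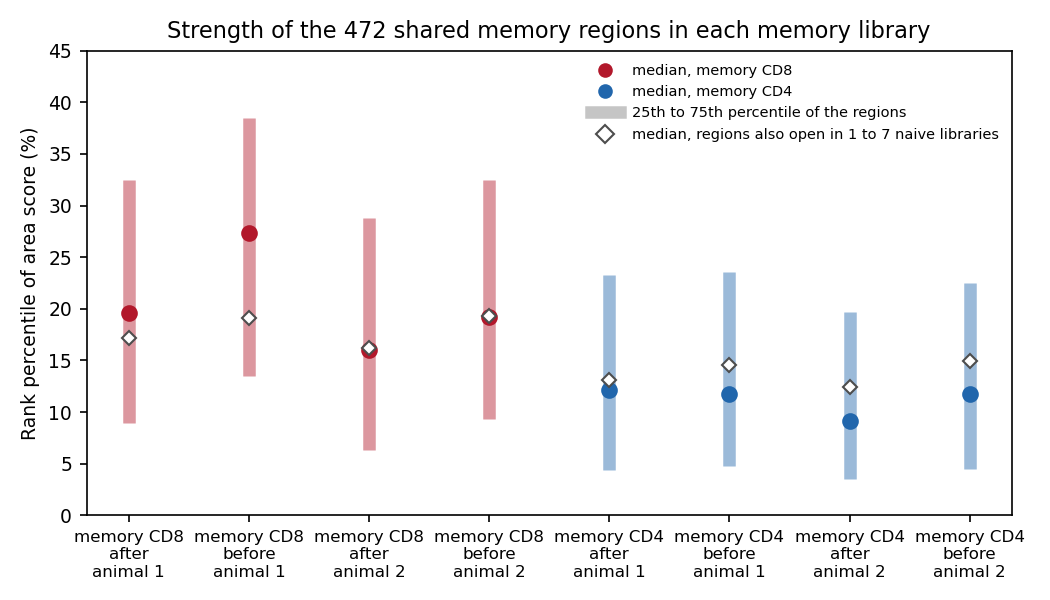
Rank percentile of the area score (vertical axis, %) of the 472 shared memory regions in each memory library, with the median as a filled circle and the 25th to 75th percentile as a bar. Open diamonds are medians of regions also open in 1 to 7 naive libraries. Medians were 16.01 to 27.3 in the 4 memory CD8+ libraries and 9.11 to 12.1 in the 4 memory CD4+ libraries.

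Other regions shared part of this lean. Regions open in all memory and 1 to 7 naive libraries were higher in memory CD8+ cells in 591 of 2642 cases (22.4%) and lower in 240 (9.08%), and always-open regions in 8.25% and 10.6%. The mirror class, 369 regions with a peak in the 8 naive libraries but in no memory one, was tested in the same way among naive libraries. There 64 (17.3%) ranked higher in naive CD8+ than in naive CD4+ cells and 8 (2.17%) lower, against 5.22% and 5.49% of the 27858 regions open in all naive libraries. Whether the lean of the memory and the naive class differ was not tested. Bases covered by peaks showed the same direction on fewer regions. On log2 bases covered, centred per library, 34 of 472 (7.20%) were wider in memory CD8+ cells and 7 (1.48%) narrower, against 3.22% and 3.92% of all fitted regions, and 33 of the 34 also ranked higher by score.

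The 5 regions with the largest CD8+ excess in normal score were near the bottom of the CD4+ ranking. Normal scores stretch the ends of a ranking, so choosing by them favours such regions. At chr5:150169102-150171385 memory CD8+ cells had percentiles of 40.3, 44.2, 47.1 and 49.7, against 0.0547, 1.57, 1.20 and 0.142 in memory CD4+ cells. The groups were far apart, with a difference in normal score of 2.55 ± 0.26 (SE, limma adjusted p = 0.000621). The strength thus differed widely although a peak was called in every memory library. The memory CD4+ area scores there were 211 to 268, near the lowest score of any list, 200. At chr11:24494767-24495587 the percentiles were 14.6, 22.7, 20.7 and 19.4 in memory CD8+ cells, against 0.164, 1.47, 0.0583 and 0.295 in memory CD4+ cells. The difference was 1.91 ± 0.24 (SE, limma adjusted p = 0.00131), with no overlap. The others were chr4:123913953-123915833 (38.3 ± 6.10 in memory CD8+ cells and 2.45 ± 2.60 in memory CD4+ cells), chr5:120509643-120511803 (50.5 ± 4.52 and 4.89 ± 4.75 in the same order) and chr8:124949708-124950514 (18.0 ± 7.32 and 0.393 ± 0.229), each as mean percentile ± SD with n = 4. Their limma adjusted p ran from 0.00165 to 0.00253. Memory CD4+ area scores were also near that lowest score at chr11:24494767-24495587 (202 to 262) and chr8:124949708-124950514 (203 to 269). They reached 436 at chr4:123913953-123915833 and 562 at chr5:120509643-120511803. By bases covered chr11:24494767-24495587, chr4:123913953-123915833 and chr8:124949708-124950514 were not past the threshold (limma adjusted p = 0.0959, 0.0631 and 0.449).

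Regions stronger in memory CD4+ cells were few. At chr8:38359701-38362284 memory CD8+ cells had percentiles of 0.725, 13.1, 2.85 and 10.2, against 35.7, 40.0, 45.9 and 41.9 in memory CD4+ cells. The groups did not overlap, and the difference was -1.45 ± 0.22 (SE, limma adjusted p = 0.00296). At chr3:64694275-64696093 the means were 11.3 ± 7.95 in memory CD8+ cells and 37.9 ± 5.22 in memory CD4+ cells (SD, n = 4 each), a difference of -0.98 ± 0.19 (SE, limma adjusted p = 0.00977). At chr10:31924908-31926133 they were 3.80 ± 4.67 in memory CD8+ cells and 33.6 ± 7.58 in memory CD4+ cells (SD, n = 4 each). That difference of -1.74 ± 0.39 (SE, limma adjusted p = 0.0160) missed the threshold without memory CD4+ of animal 1 after treatment (adjusted p = 0.0511). The call at chr10:60668066-60669469 was lost without the same library (limma adjusted p = 0.0530). The call at chr3:2671508-2672698 was lost without any of 6 libraries (limma adjusted p = 0.0529 to 0.0984). With the summit p ranked in place of the area score, all of these but chr10:31924908-31926133 missed the threshold (limma adjusted p = 0.0699 to 0.311).

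**Figure D3:**
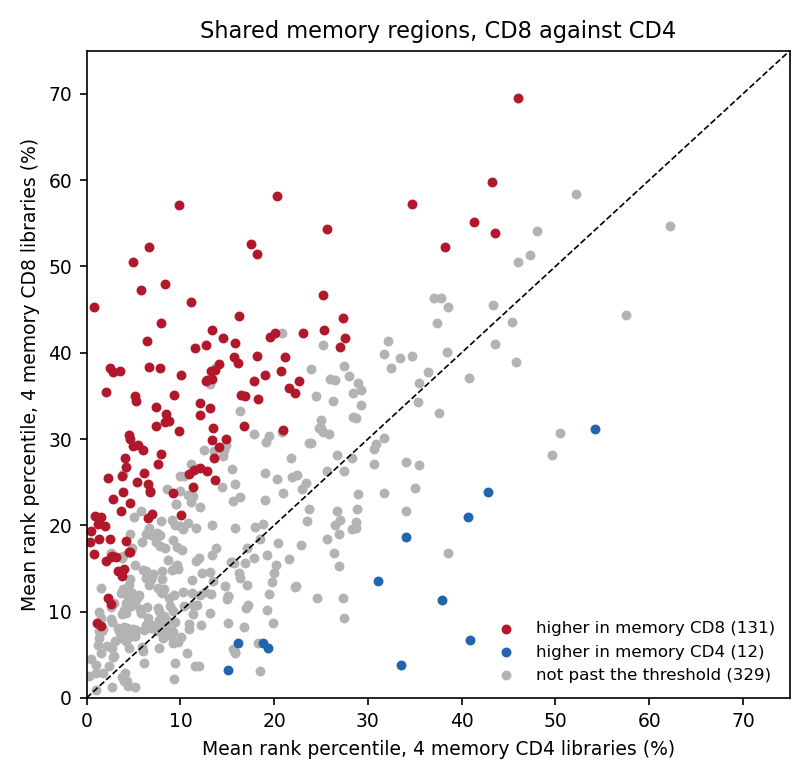
Mean rank percentile of each shared memory region over 4 memory CD8+ libraries (vertical axis, %) against that over 4 memory CD4+ libraries (horizontal axis, %), with equal values on the dashed line. The 131 regions past the threshold toward CD8+ lie above the line and the 12 toward CD4+ below it, and the 329 others lie on both sides of it.

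The 131 regions stronger in memory CD8+ cells were middling in CD8+ and weak in CD4+ cells. Their median percentile was 32.9 in memory CD8+ and 9.22 in memory CD4+ cells, while the 329 regions that did not pass had 15.4 and 11.3. They were also wider, at 1520 bp against 1193 bp at the median, which was not tested. Another member lay within 50 kb of 34 of the 131 (26.0%) and of 98 of the 329 (29.8%), a difference that was not tested. Ranks of the 472 regions were more alike between times than between lineages. Spearman's rho across the 472 regions averaged 0.786 between after and before of the same population and animal, 0.672 between animals and 0.455 between lineages (4 library pairs each). Over all 27447 regions it was 0.982, 0.968 and 0.930. These describe regions within libraries that share cells, depth and list length, and carry no p.

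The treatment comparison asked whether cyclodextrin dosing changed the strength of these regions. No shared memory region passed in either direction (limma, 4 libraries after against 4 before, lineage as covariate), and 0% of all 27447 regions did. At an unadjusted p under 0.05 there were 35 of the 472, 5 higher and 30 lower after treatment, and 1087 of all regions, 502 higher and 585 lower. The median difference, after minus before, was -0.09 in normal score for the shared memory regions and 0.01 for all regions. It was -0.04 without the memory CD8+ library of animal 1 before treatment. The share of shared memory regions ranking higher after treatment was 30.9% and 37.1% in memory CD8+ cells of animals 1 and 2, and 48.3% and 39.2% in memory CD4+ cells. Over all fitted regions these shares were 47.6%, 53.4%, 50.2% and 53.2%. Lower ranks after treatment in all 4 pairs were found for 66 regions (13.98%) and higher ones in 13 (2.75%), against 7.04% and 8.27% of all regions. Regions also open in 1 to 7 naive libraries had a median difference of -0.06. On bases covered the median was 0.03 for the shared memory regions and 0.02 for all, so width did not show the lower rank.

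The largest single changes with treatment in normal score, a scale that favours values near the ends of the ranking, were within weak and scattered values. At chr5:120457365-120458579 the percentiles after treatment were 27.2 and 13.8 in memory CD8+ cells and 0.160 and 1.77 in memory CD4+ cells of animals 1 and 2. Before treatment they were 31.7 and 23.4 in memory CD8+ cells and 15.7 and 22.0 in memory CD4+ cells. The values were lower after in every pair. The difference of -0.94 ± 0.32 (SE) did not pass (limma adjusted p = 0.999). Next were chr2:161931659-161932728, at 3.37 ± 4.63 after and 12.2 ± 4.31 before, and chr13:69749228-69751092, at 8.09 ± 9.12 after and 22.0 ± 11.9 before (mean percentile ± SD, n = 4 each). The largest rises, likewise not past the threshold, were chr11:119572784-119573913 (8.97 ± 6.83 after and 4.24 ± 5.14 before), chr16:37463483-37464189 (9.17 ± 7.04 and 2.57 ± 1.26) and chr13:69118495-69119704 (10.3 ± 7.33 and 7.48 ± 5.03), with n = 4 each. A difference in the change between memory CD8+ and memory CD4+ cells was found for none of the 472 (limma interaction, 0% of all regions). At an unadjusted p under 0.05 there were 20 of the 472 and 698 of all 27447.

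Shared memory regions were found on every autosome and on X, at uneven rates. They made up 1.72% of the regions open in all 8 memory libraries over all chromosomes. The rate was highest on chromosome 8, with 34 of 976 (3.48%), followed by chromosome 17 with 15 of 526 (2.85%) and chromosome 13 with 28 of 1022 (2.74%). It was lowest on X, with 4 of 739 (0.541%), and on chromosome 19, with 9 of 1600 (0.563%). Chromosome 4 held the most, 44 regions. These rates were not tested.

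Some shared memory regions lay in groups. Of the 472, 135 (28.6%) had another within 50 kb. They formed 44 pairs, 4 groups of 3, 4 of 4, and single groups of 5, 6 and 8. Other kinds of region were not grouped in this way, so whether a share of 28.6% is unusual was not tested. The group of 8 spanned 109.6 kb at chr2:161931659-162041278. Its 8 members had mean percentiles of 7.79 to 49.3 and widths of 787 to 4207 bp, and 2 further regions in the span were open in all 8 memory libraries and 1 naive library or in 3 memory libraries. No region within the span was open in all 16 libraries. The nearest such regions were chr2:161885935-161887532 before it and chr2:162048610-162051207 after it. Its members did not share 1 lineage lean. The members at chr2:161956198-161957972, chr2:161963323-161964388 and chr2:161983455-161984692 were higher in memory CD8+ cells, with means of 33.6 ± 8.38, 22.6 ± 7.55 and 40.6 ± 4.28, against 13.1 ± 5.60, 4.59 ± 2.19 and 27.0 ± 3.10 in memory CD4+ cells (SD, n = 4 each, limma adjusted p = 0.0100 to 0.0131). The members chr2:162028312-162030343 and chr2:162040347-162041278, at the far end, averaged 30.7 ± 19.2 and 5.33 ± 3.88 in memory CD8+ cells and 50.5 ± 0.741 and 15.8 ± 5.69 in memory CD4+ cells, and did not pass (limma adjusted p = 0.155 and 0.0564).

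**Figure D4:**
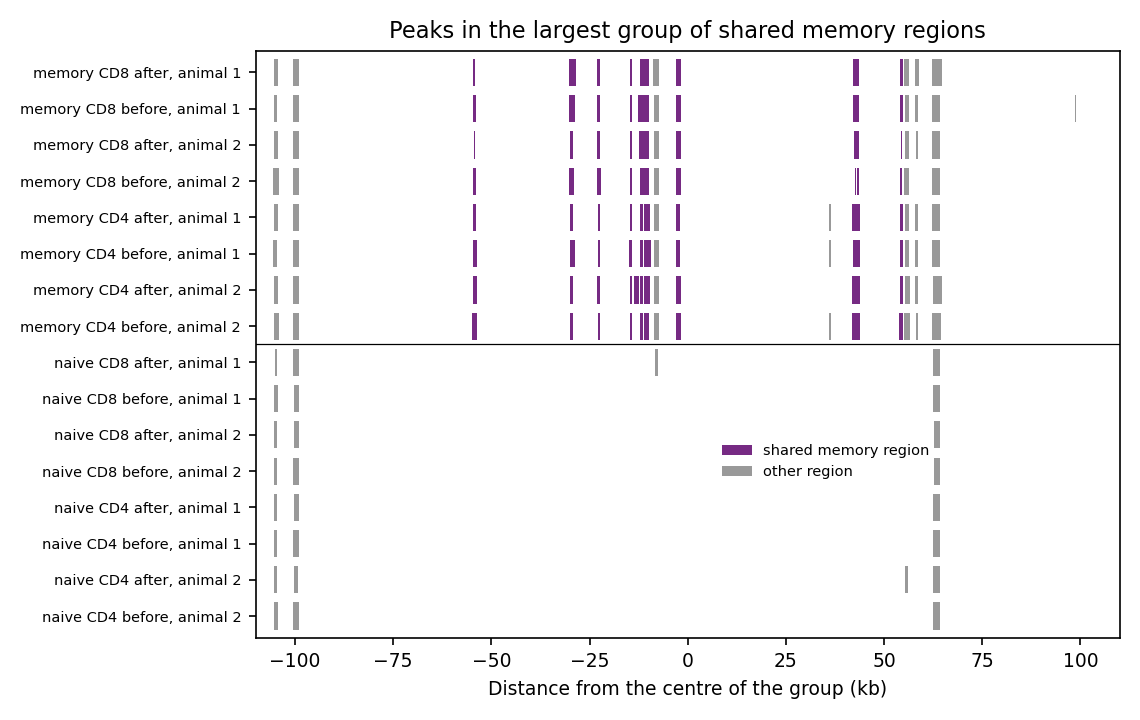
Peaks of the 16 libraries (rows) in and around the group of 8 shared memory regions on chromosome 2, drawn to scale by distance from the group's centre (horizontal axis, kb). Shared memory regions appear in all 8 memory rows and no naive row, and between the always-open regions on either side the naive rows hold 2 peaks.

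The next groups differed in lineage lean and in neighbours. At chr6:154924419-155007465, 6 members lay among 9 regions, none of them always open. Their means in memory CD8+ cells (11.6 to 44.4) were each below the mean of the same region in memory CD4+ cells (23.5 to 57.6 overall), though none passed the test (limma adjusted p = 0.0524 to 0.900). At chr15:10496505-10600970, 5 members lay among 19 regions, and all 6 always-open regions there were stronger in memory than in naive cells. At chr13:14679149-14741308, 4 members lay among 12 regions, with both always-open ones stronger in memory cells. At chr14:29031831-29120405, 2 of 4 members ranked higher in memory CD8+ cells. Of these, chr14:29052537-29054639 averaged 54.3 ± 1.60 in memory CD8+ cells and 25.6 ± 2.995 in memory CD4+ cells (SD, n = 4 each, limma adjusted p = 0.000288).

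Regions that stay open in naive cells were examined around the shared memory regions, since the rule did not use them. Always-open regions close to a shared memory region were more often stronger in memory than in naive cells. Of 958 within 50 kb, 508 (53.0%) ranked higher in the 8 memory than in the 8 naive libraries and 98 (10.2%) lower, against 19.4% and 23.1% of all 24333 always-open regions (limma on normal scores of ranks, lineage and time as covariates, adjusted over 24333). The 8 libraries of each side came from the same 2 animals, so these p-values reflect library-to-library spread in those animals. The share stronger in memory cells fell with distance. It was 64.9% of 276 regions within 10 kb, 52.0% of 298 from 10 to 25 kb, 45.3% of 384 from 25 to 50 kb, 33.5% of 696 from 50 to 100 kb and 23.9% of 1582 from 100 to 250 kb. Beyond 1000 kb it was 16.5% of 16116. Leaving out any 1 library gave 50.2% to 52.1%, and leaving out both naive CD8+ libraries of animal 1 gave 49.2%.

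The mirror image was seen around the 369 shared naive regions. Of 721 always-open regions within 50 kb of one, 84 (11.7%) were stronger in memory and 327 (45.4%) stronger in naive cells. Within 50 kb of both kinds there were 9 always-open regions, of which 7 were stronger in naive cells. A shared naive region lay within 50 kb of 2 of the 472 shared memory regions. Both kinds are sparse, with 958 and 721 of 24333 always-open regions near one, so few such cases arise in any event. Whether they were fewer than that was not tested. Of the 472, 379 (80.3%) had an always-open region within 50 kb. One that was stronger in memory cells lay near 286 (60.6%), and one stronger in naive cells near 78 (16.5%). For the 369 shared naive regions these were 54 (14.6%) and 198 (53.7%). Such shares were not computed over all regions, and they depend on how many always-open regions lie nearby.

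**Figure D5:**
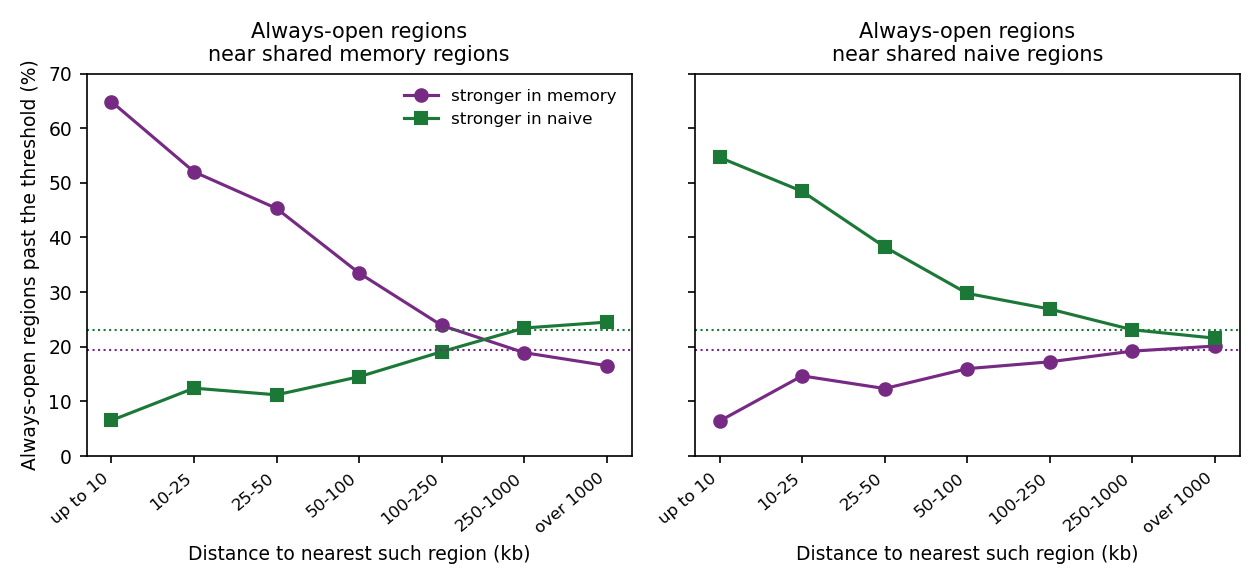
Share of always-open regions that ranked higher in memory or in naive libraries (vertical axis, %) by distance to the nearest shared memory region (left) or shared naive region (right), with dotted lines at the shares over all 24333 (19.4% and 23.1%). The memory share is 64.9% within 10 kb of shared memory regions and falls toward the dotted line, and the naive share does likewise around shared naive regions, from 54.7%.

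The largest differences among these neighbours were changes of rank across much of the range. At chr15:10580627-10588362, 8.43 kb from a shared memory region, the percentile among always-open regions was 90.9 ± 4.07 in memory and 27.4 ± 7.45 in naive libraries (SD, n = 8 each), with 84.4 the lowest memory and 41.2 the highest naive value. The limma adjusted p was 1.95e-08, with both sides drawn from the same 2 animals. At chr11:9945827-9950313, 1.04 kb away, it was 46.1 ± 16.4 in memory and 1.85 ± 1.83 in naive libraries (SD, n = 8 each, limma adjusted p = 1.26e-05), and at chr2:122466707-122469627, 27.9 kb away, 49.9 ± 5.31 and 6.85 ± 8.70 in the same order (limma adjusted p = 5.28e-05). The groups did not overlap at any of these 3. The other 2 of the top 5 were chr3:59689226-59696199, with 79.5 ± 19.4 in memory and 24.7 ± 15.5 in naive libraries, and chr9:5106194-5110344, with 52.7 ± 18.9 and 11.7 ± 18.1. The region on chromosome 9 had overlapping groups, since the lowest memory value of 34.7 was below the highest naive value of 42.5.

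Always-open neighbours of the CD8-stronger shared memory regions were also more often CD8-stronger. Of 213 always-open regions that lay within 50 kb of a CD8-stronger shared memory region and of no other kind, 45 (21.1%) ranked higher in memory CD8+ than in memory CD4+ cells and 11 (5.16%) lower. Among always-open regions as a whole these shares were 8.25% and 10.6%. In naive cells, whose values had no part in the lineage call, 24 of the 213 (11.3%) ranked higher in CD8+ and 9 (4.23%) in CD4+ cells, against 4.75% and 4.94% of always-open regions and 5.22% and 5.49% of all regions fitted in naive cells. Around shared memory regions with no lineage call, 14.4% of 724 always-open regions ranked higher in memory CD8+ and 10.4% in memory CD4+ cells, and in naive cells 6.22% and 6.63% did. Around the 12 CD4-stronger regions there were 28, of which 1 ranked higher in memory CD8+ and 1 in memory CD4+ cells. Unlike the 213, the 724 and the 28 could also lie near a shared memory region of another kind. Defined as loosely, 262 lay near a CD8-stronger region, with 24.0% higher in memory CD8+ and 4.20% in memory CD4+ cells. In naive cells these shares were 12.6% and 3.82%. The differences between these sets of neighbours were not tested. This split of the neighbours was made after the data were seen.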

How the data were processed

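The submitters' processing notes name rheMac10 as the genome, and Genrich 0.6, Bowtie2 2.3.4.1 and cutadapt 1.18 as tools. No source used here states the tool settings, the shift of reads for transposase cuts or duplicate removal, and such steps set peak width and weak calls. Each deposited list, 1 per library with no pooling of replicates, gives an area score per peak and the authors' −log10 p at the summit (2.42 to 16.3). Counts of reads were not used here, so depth was unknown and no counting interval is given.

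Peaks sharing at least 1 bp were merged. Area scores were summed per region, ranked within each library over a common set of regions, turned into normal scores and fitted with limma 3.58.1 (R 4.3.3), with a mean-variance trend and Benjamini-Hochberg adjustment over all fitted regions. The fit was also run on simulated data with independent noise in each library. The simulation held no link between libraries of the same animal, so it does not check the fit on that point. Regions are named by a fixed rule: highest mean rank, largest lineage and treatment differences, widest and narrowest, largest groups, strongest just outside the rule and largest differences among neighbours. Members and comparisons were chosen with earlier results of these data known. Libraries are paired by animal through their titles, and deviations of same-animal memory libraries from their group means correlated at 0.305 to 0.489 over 6 pairs of groups. Planned motif and gene results were not run, as no rheMac10 genome was used. Python 3.11.15, numpy 2.4.6, pandas 2.3.3, scipy 1.17.1 and matplotlib 3.10.9 were used.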

Additional observations from a re-analysis of the deposited data

Results flagged for a closer look

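Of 52 sets of 4 or 8 memory libraries examined for a value far from the rest, 3 were flagged. That is close to the 1 in 20 that chance would give in independent sets. The sets here shared libraries, and the named regions were chosen from the same values, so that rate is only a rough guide. The median percentile of the shared memory regions in memory CD4+ cells of animal 2 after treatment was 9.11, below the other 3 memory CD4+ libraries (11.7 to 12.1). At chr3:180988069-180990126 the value of memory CD4+ cells of animal 1 after treatment was 36.0, below the others (42.9 to 43.4). At chr11:24494767-24495587 the value of memory CD4+ cells of animal 1 before treatment was 1.47, above the others (0.0583 to 0.295).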

How the results depend on the processing

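Depth was unknown, and membership depended on the peak threshold more than the number of regions did. With peaks of summit −log10 p of at least 3.42 there were 341 shared memory regions, and 128 of the original 472 overlapped one. The same 2 numbers were 391 and 283 with lists of equal length, 492 and 239 with peaks covering at least 50% of a region, and 464 and 445 with 500 bp windows around summits. The replicate block (the rule within each animal) gave 474, autosomes alone 468, leaving out 1 library 477 to 544, and leaving out both naive CD8+ libraries of animal 1 601. These 4 settings only repeat, restrict by chromosome or relax the rule. They could not lose a member on the chromosomes kept, so they do not test membership.

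Leaving out 1 memory library gave at least 99 members higher in memory CD8+ cells and 4 to 36 lower. Over all fitted regions 7.06% to 10.5% were higher and 6.75% to 11.7% lower in these fits. Lower members numbered 6 by summit p and 22 with the replicate block. At the stricter threshold a set of 341 regions, overlapped by 128 of the 472, took the place of the members, and 4 were lower. The lower shares over all fitted regions were 6.49%, 14.2% and 9.36% in the same order. The filter on a mean percentile of at least 20 kept 183 members, of which 78 were higher and 6 lower. Of the 22245 regions fitted under that filter, 11.2% were higher and 11.8% lower. Ranks among regions not open in all naive libraries gave 82 and 38, and bases covered 34 and 7, both chosen after the data were seen. Their shares over all fitted regions were 15.9% and 16.3%, and 3.22% and 3.92%. No member passed for treatment or its difference between lineages in any of these settings, including the block and each library left out (0). The cause of the changed counts was not tested.

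Of always-open regions within 50 kb, 50.2% to 52.1% were stronger in memory and 8.98% to 10.2% in naive cells with 1 library left out. By summit p the shares were 37.3% and 5.74%, against 12.8% and 12.9% of all always-open regions. With each animal alone as the replicate block, 2 memory and 2 naive libraries chose the regions. Those chosen before treatment were open in 84.7% (memory) and 11.6% (naive) of cases after it for animal 1, and 76.2% and 8.36% for animal 2. Those chosen after treatment gave 79.7% and 13.0% for animal 1 and 87.1% and 13.4% for animal 2. With equal lists the naive share before was 10.6%. Among the named regions, the treatment difference at chr13:69118495-69119704 reversed to -0.0938 without memory CD4+ of animal 2 before treatment and to -0.0518 by bases covered, with -0.0938 to 0.958 over single libraries left out. For the named lineage differences, 138 values under the alternatives kept their side of the threshold and 17 lost the call. These counts leave out settings in which a named region was absent. None of the named lineage regions could be read at the stricter threshold. Each had a summit −log10 p under 3.42 in some memory list, so it was not open in all memory lists there. Those with a mean percentile under 20 were also absent under that filter.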
